A study of Mus musculus with 26 samples.

Results

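The cathepsins described here are 10 lysosomal protease genes, *Ctsa*, *Ctsb*, *Ctsc*, *Ctsd*, *Ctsf*, *Ctsh*, *Ctsk*, *Ctsl*, *Ctss* and *Ctsz*, chosen by name from the 16426 genes of the single-cell count tables. All 10 were also present among the 17623 genes of the bulk tables. The single-cell data came from RPE/choroid, the pigmented epithelium behind the retina together with the vascular layer that feeds it, of 3-month-old B6129PF1/J and C57BL/6J mice, with 1 library per strain made from pooled male and female tissue after sorting of live nucleated cells. The study placed the cells in 13 clusters, namely RPE, Kdr-high, Kdr-medium and Kdr-low ECs (endothelial cells), stromal clusters 5 to 8, Schwann clusters 12 and 13, hematopoietic cells, melanocytes and smooth muscle. Bulk RNA-seq covered RPE/choroid of 6-month-old C57BL/6J mice in which *Ihh*, a secreted Hedgehog ligand, was deleted from ECs by a tamoxifen-inducible Cre under the *Cdh5* promoter, with 3 mice per genotype. The Ihh+/+ controls carried the same Cre and received tamoxifen too, 12 weeks before sacrifice. It also covered cultured GLI1+ stromal cells, sorted from pooled female Gli1 GFP/+ reporter mice and expanded, which were exposed to SAG, an agonist of the Hedgehog transducer Smoothened, at 100 nM or to DMSO for 24 h, with 3 cultures per treatment. These mice are labelled SWR/J, and by the study's methods the line arose in that strain and was crossed to BALB/c before use.

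Cathepsins are made as inactive proenzymes, carried to the lysosome mostly by mannose 6-phosphate receptors and activated there at low pH. Most are cysteine proteases, whereas cathepsin D is an aspartic protease and cathepsin A a serine carboxypeptidase. In RPE they take part in the daily digestion of shed photoreceptor outer segments, and in antigen-presenting cells cathepsin S trims the invariant chain of class II molecules. Cystatins, such as cystatin C encoded by *Cst3*, are their main protein inhibitors.

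The B6129PF1/J library held 3637 cells and 17168578 UMIs (transcript molecules counted once each), with a median of 3881 UMIs per cell. The C57BL/6J library held 3928 cells and 15230413 UMIs, with a median of 3174.5. Levels below are UMIs of a gene per 10,000 UMIs of a cluster, with exact Poisson 95% intervals that cover counting error only. Each transcript is tagged once at its 3′ end, so that this scale does not grow with gene length. With 1 library per strain there was no test, and strain and library cannot be told apart. A cell barcode was shared by both libraries in 22 cases. UMIs of both *Xist* and *Ddx3y*, which mark mixed male and female transcripts, were held by 35 and 33 cells. This count misses same-sex doublets and those in which either transcript went undetected. The study's own doublet estimate, which corrected for both, was higher. All 26 markers checked for the 7 cell types were highest in a cluster of their own type in both libraries. In stromal cluster 6 the smooth muscle markers summed to 12.95 and 8.42 per 10,000, beside 22.0 and 18.5 for the stromal markers.

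The 10 cathepsins together took 0.312% of all UMIs in B6129PF1/J and 0.295% in C57BL/6J. Hematopoietic cells had the highest summed share, 0.592% (95% interval 0.572 to 0.613) in B6129PF1/J and 0.884% (0.861 to 0.908) in C57BL/6J. RPE followed at 0.528% (0.520 to 0.537) and 0.483% (0.472 to 0.493), and melanocytes at 0.461% (0.417 to 0.507) and 0.422% (0.384 to 0.463). The stromal clusters lay between 0.267% and 0.396%, and smooth muscle cells were lowest at 0.0917% and 0.0887%. The map of levels by cluster shows that the cell types also differed in which cathepsin they held.

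**Figure D1:**
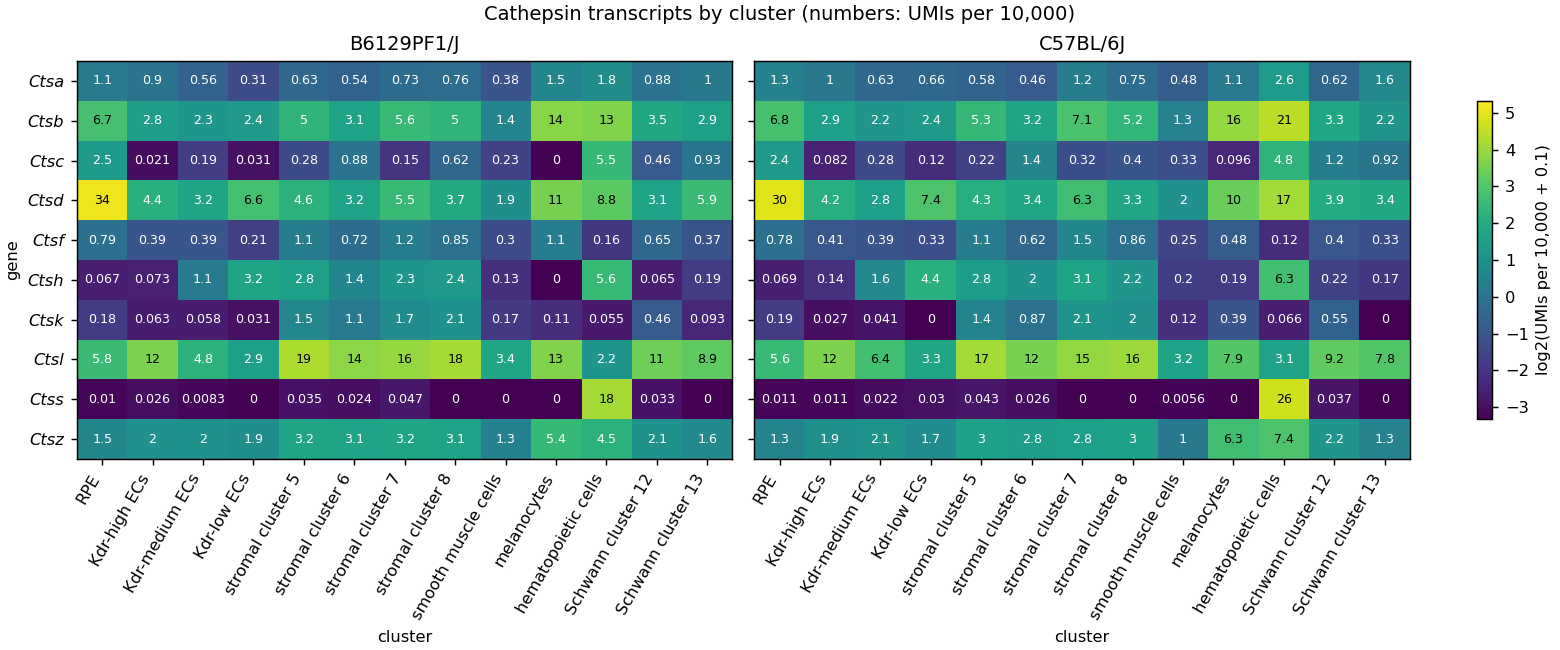
Level of each of the 10 cathepsins (rows) in the 13 clusters (columns) of the B6129PF1/J library (left) and the C57BL/6J library (right), coloured by log2(UMIs per 10,000 + 0.1) with the level printed in each cell. *Ctsd* stands out in RPE at 34.2 and 29.7, *Ctss* in hematopoietic cells at 17.8 and 25.6, and *Ctsl* in the stromal clusters and Kdr-high ECs.

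Of the 10 members, 7 were highest in the same cluster in both libraries, against 46.5% of all 15299 genes with a UMI in both. Only *Ctss* and *Ctsc* (2 of 10) were at least 2 times higher in their top cluster than in every other cluster of both libraries, against 13.5% of all genes. The remaining 3, *Ctsb*, *Ctsk* and *Ctsz*, changed their top cluster between libraries, and in B6129PF1/J the intervals of their top and second clusters overlapped. These shares describe the members beside all genes and were not tested. All genes include sparse ones, whereas each member had between 864 and 17813 UMIs in a library. No share over genes of like depth was computed, so the difference is not read as a trait of the members.

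Cathepsin D, the main aspartic protease of the lysosome, was the RPE cathepsin. *Ctsd* stood at 34.2 (33.6 to 34.9) in RPE of B6129PF1/J and 29.7 (28.9 to 30.5) in RPE of C57BL/6J, and 99.8% and 99.7% of RPE cells held at least 1 of its UMIs. RPE alone held 64.2% and 47.3% of all *Ctsd* UMIs of the libraries. The next clusters were melanocytes at 11.5 (9.37 to 13.9) in B6129PF1/J and hematopoietic cells at 17.2 (16.2 to 18.3) in C57BL/6J, so that RPE was 2.98 and 1.72 times above its nearest cluster. Kdr-low ECs, at 6.60 and 7.40, were above Kdr-high ECs at 4.43 and 4.18 and Kdr-medium ECs at 3.18 and 2.83, with intervals apart in both libraries. Smooth muscle cells were lowest at 1.86 and 1.97. *Ctsd* is at GRCm38 chr7:142375911-142388038 on the minus strand.

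Cathepsin A, a carboxypeptidase that also protects beta-galactosidase and neuraminidase, showed little contrast. *Ctsa* was highest in hematopoietic cells, at 1.83 (1.49 to 2.22) and 2.57 (2.18 to 3.01), but this interval overlapped that of the second cluster in both libraries. From its top to its lowest cluster it varied 5.98-fold and 5.62-fold. RPE held 1.05 and 1.30. *Ctsa* is at chr2:164832873-164841032 on the plus strand.

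The promoter windows of both genes are shown because *Ctsd* and *Ctsa* were the members with the letters TCACGTGA, the core of the CLEAR element bound by the lysosomal regulators of the TFEB, TFE3 and MITF family. RefSeq windows (GRCm38.p6, 250 bases before to 50 after a start site) were found for 8 of the 10 members, 9 windows in all, since *Ctsa* has 2. TCACGTGA, searched on both strands, was in 2 of these 9 windows and in 0.974% of all 32851 windows. CACGTG, the E-box that it contains, was in 4 of 9 (*Ctsa*, *Ctsd*, *Ctsf*, *Ctsl*) and in 7.15% of all. The *Ctsa* window that spans the start of the gene as positioned above held none of the motifs searched. The *Ctsd* and *Ctsa* stretches printed here both lie inside the genes as positioned above. Their start sites are thus downstream of the gene starts given there. The stretches printed run from 170 bases before to 30 bases after the start site, 5′ to 3′ on the gene's strand. Capitals in *Ctsd* (chr7:142387798-142387997, minus strand) mark TCACGTGA beginning at -99, counted from the start site as 0, and in *Ctsa* (the window at chr2:164833603-164833802, plus strand) they mark TCACGTGA at -13 and 4 and TCATGTG, the MITF-type M-box, on the opposite strand at 21. A match is a description of letters and no evidence of binding.
Ctsd: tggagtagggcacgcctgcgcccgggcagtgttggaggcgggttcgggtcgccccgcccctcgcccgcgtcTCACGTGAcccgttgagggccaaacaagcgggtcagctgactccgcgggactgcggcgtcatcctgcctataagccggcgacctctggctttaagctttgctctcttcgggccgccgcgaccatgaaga
Ctsa: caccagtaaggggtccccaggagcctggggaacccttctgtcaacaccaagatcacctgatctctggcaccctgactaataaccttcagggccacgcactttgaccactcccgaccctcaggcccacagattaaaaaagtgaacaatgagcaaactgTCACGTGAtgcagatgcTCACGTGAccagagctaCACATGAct

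Cathepsins B and Z, both cysteine carboxypeptidases, followed a shared order of clusters with melanocytes and hematopoietic cells at the top. *Ctsb*, which also has endopeptidase activity, stood at 13.9 (11.5 to 16.5) in melanocytes and 12.8 (11.8 to 13.7) in hematopoietic cells in the B6129PF1/J library. In C57BL/6J it stood at 15.5 (13.2 to 18.1) in melanocytes and 21.2 (20.1 to 22.4) in hematopoietic cells. RPE stood at 6.75 and 6.82, beside stromal cluster 7 at 5.63 and 7.10, and smooth muscle cells were lowest at 1.41 and 1.33. *Ctsb* was found in all 16 and 26 melanocytes of the libraries, a small number that limits the precision there. *Ctsb* is at chr14:63122462-63145923 on the plus strand.

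*Ctsz* repeated the pattern at lower levels. It stood at 5.41 (3.99 to 7.17) in melanocytes and 4.55 (4 to 5.15) in hematopoietic cells of B6129PF1/J, and at 6.26 (4.83 to 7.98) and 7.37 (6.70 to 8.09) in those of C57BL/6J. These neighbours did not differ beyond their intervals in either library. Unlike *Ctsb*, *Ctsz* was lower in RPE, at 1.46 and 1.34, than in the stromal clusters, at 2.79 to 3.24. Across the 26 values of 13 clusters in 2 libraries, *Ctsb* and *Ctsz* were the most alike pair of members, with Pearson r = 0.82 on the log2(UMIs per 10,000 + 0.1) scale. These values share library and depth, and r is given as a description. *Ctsz* is at chr2:174427493-174439039 on the minus strand.

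Cathepsin L, a cysteine endopeptidase, was the most abundant member in the stromal clusters, Kdr-high and Kdr-medium ECs, smooth muscle cells and both Schwann clusters. *Ctsl* stood at 18.8 (18.3 to 19.3) and 17.3 (16.8 to 17.8) in stromal cluster 5 and at 17.9 (16.8 to 18.9) and 16.1 (15.0 to 17.3) in stromal cluster 8, intervals that overlapped. It was found in 99.4% and 98.2% of the cells of stromal cluster 5. *Ctsl* is at chr13:64359337-64370890 on the minus strand. Kdr-high ECs stood at 12.1 (11.6 to 12.6) and 12.4 (11.9 to 12.9), melanocytes at 12.6 and 7.90 and Schwann cluster 12 at 10.6 and 9.21. Hematopoietic cells, the leading cluster of 4 other members in both libraries, were lowest by level for *Ctsl* at 2.21 (1.83 to 2.64) and 3.05 (2.63 to 3.52), overlapping Kdr-low ECs. As the plot of make-up shows, *Ctsl* gave 53.2% and 53.9% of the cathepsin UMIs of Kdr-high ECs but 3.73% and 3.45% of those of hematopoietic cells, and *Ctsd* gave 64.7% and 61.6% of those of RPE.

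**Figure D2:**
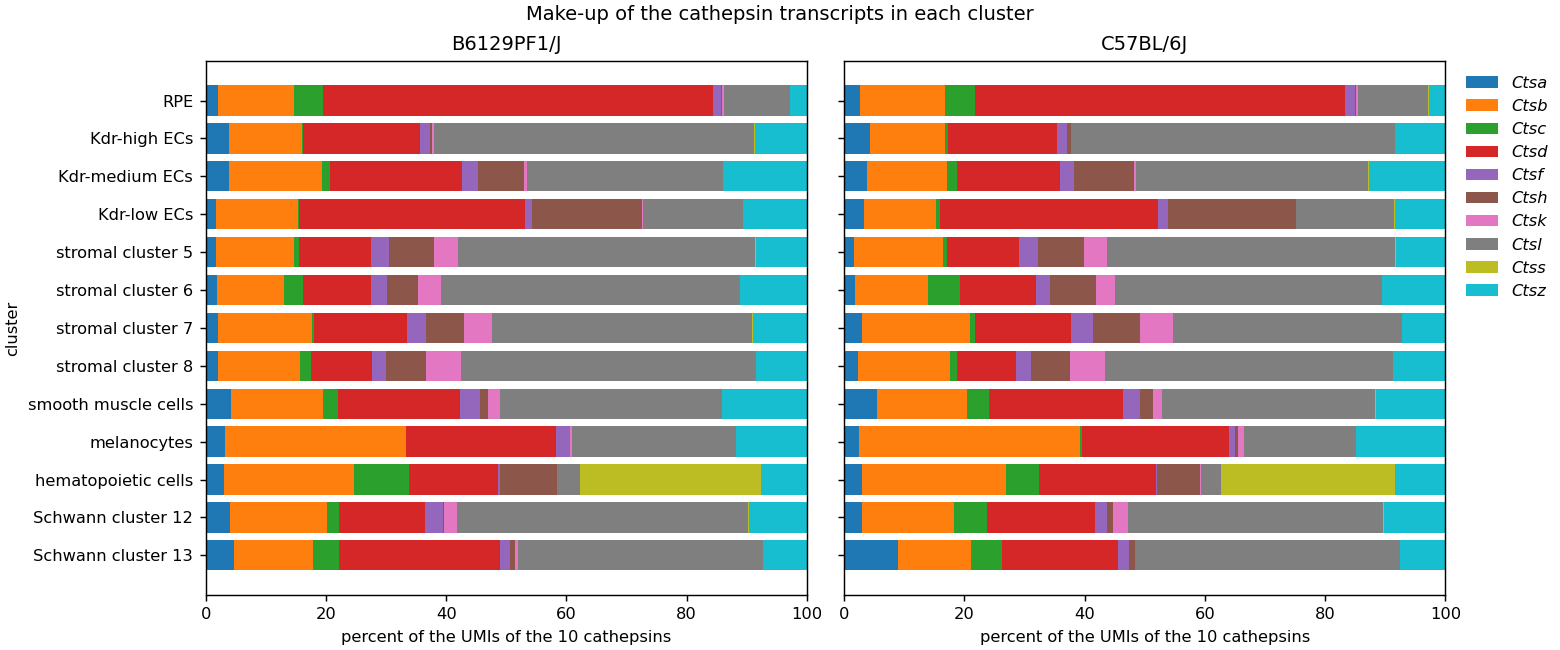
Share of each cathepsin among the UMIs of the 10 members (x axis, percent) in each of the 13 clusters (y axis) for the B6129PF1/J (left) and C57BL/6J (right) libraries, 1 colour per gene. *Ctsd* fills most of the RPE bar, *Ctsl* most of the Kdr-high EC bar, and *Ctss* appears almost solely in the hematopoietic bar, at 30.1% and 28.9%.

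Along the 3 EC clusters *Ctsl* and *Ctsh* ran in opposite directions. The clusters were ordered by *Kdr*, the main VEGF receptor gene, at 16.4, 8.86 and 0.611 in B6129PF1/J and 14.01, 6.27 and 0.907 in C57BL/6J. *Ctsl* declined with it, from 12.1 through 4.76 to 2.90 (2.35 to 3.55) in B6129PF1/J and from 12.4 through 6.40 to 3.32 (2.73 to 4.01) in C57BL/6J, which is 4.18-fold and 3.73-fold from high to low. *Ctsh*, which encodes an aminopeptidase, climbed from 0.0735 (0.0402 to 0.123) through 1.12 to 3.21 (2.62 to 3.88), and from 0.137 (0.0886 to 0.202) through 1.64 to 4.35 (3.67 to 5.12), or 43.7-fold and 31.8-fold. The share of ECs with a *Ctsh* UMI went from 2.97% through 36.0% to 58.7% and from 5.46% through 41.7% to 52.8%, while the median depth was 4232.5, 4147 and 3915 UMIs and 3460, 3430 and 2954.

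Of the 8 members with at least 20 UMIs in the ECs of each library, *Ctsl* was the only member that stepped down and *Ctsh* the only member that stepped up in both libraries with the ends' intervals apart. The same rule was met by 3.70% of 9656 genes falling and 3.57% rising. The clusters had been formed from the same cells, so that these are descriptions and no tests. *Ctsc* was highest in Kdr-medium ECs, at 0.0210, 0.195 and 0.0306 from Kdr-high to Kdr-low in B6129PF1/J and at 0.0821, 0.278 and 0.121 in C57BL/6J. *Ctsb* stood at 2.77, 2.25 and 2.38 in B6129PF1/J and at 2.87, 2.20 and 2.45 in C57BL/6J. *Ctsz* lay between 1.69 and 2.1 in all 3 clusters of both libraries.

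**Figure D3:**
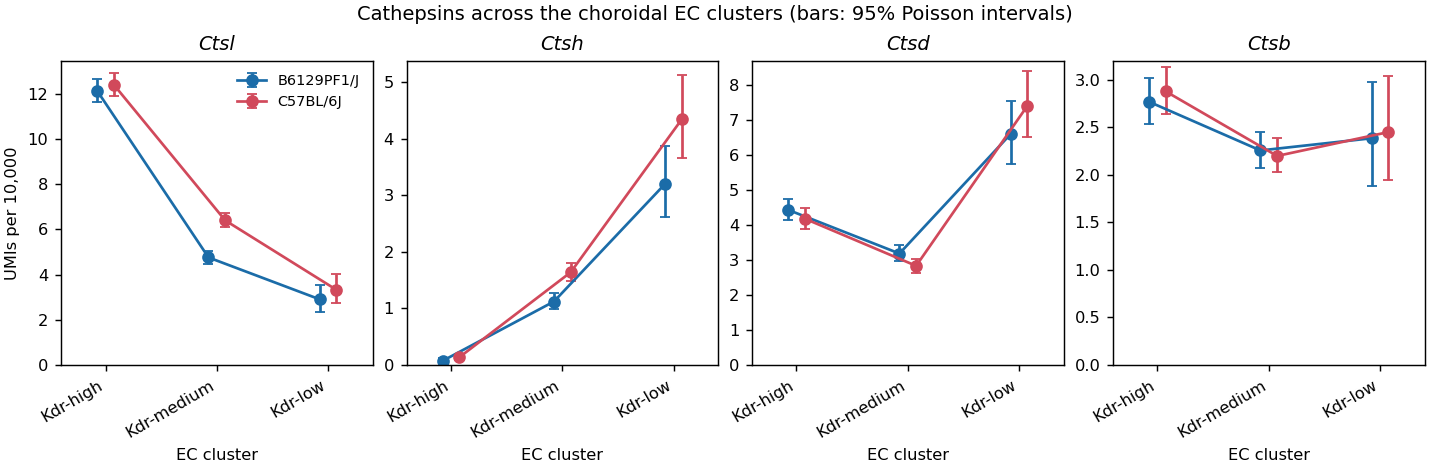
UMIs per 10,000 (y axis, from 0) of *Ctsl*, *Ctsh*, *Ctsd* and *Ctsb* in Kdr-high, Kdr-medium and Kdr-low ECs (x axis) of the B6129PF1/J (blue) and C57BL/6J (red) libraries, with 95% Poisson intervals as bars. *Ctsl* declines from about 12.1 and 12.4 and *Ctsh* climbs to 3.21 and 4.35, while *Ctsd* is highest in Kdr-low ECs and *Ctsb* is nearly flat.

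*Ctsh* was otherwise a hematopoietic and stromal transcript. Its highest level was in hematopoietic cells, at 5.61 (5.00 to 6.27) and 6.35 (5.73 to 7.02), and the stromal clusters lay between 1.45 and 3.10. In RPE it stood at 0.0667 and 0.0686. Kdr-low ECs thus stood above every stromal cluster of their library by level, and second only to hematopoietic cells. *Ctsh* is at chr9:90054152-90076089 on the plus strand.

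Cathepsin K, the collagenase that osteoclasts use on bone, was a stromal transcript, and by level all 4 stromal clusters were above every other cluster of both libraries. In B6129PF1/J *Ctsk* stood at 1.49 (1.36 to 1.63), 1.08 (0.944 to 1.23), 1.68 (1.42 to 1.98) and 2.09 (1.75 to 2.48) in stromal clusters 5, 6, 7 and 8. In C57BL/6J the values were 1.39, 0.868, 2.14 (1.79 to 2.55) and 1.99 (1.61 to 2.43). Stromal clusters 7 and 8 did not differ beyond their intervals, and cluster 6 was lowest. The highest level outside stroma was 0.458 (0.250 to 0.768) and 0.550 (0.308 to 0.908) in Schwann cluster 12, and in C57BL/6J this interval overlapped that of cluster 6. Kdr-low ECs gave 1 UMI of *Ctsk* in B6129PF1/J and 0 in C57BL/6J, where 3 UMIs would have been 0.0907 per 10,000.

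*Ctsf*, a cysteine protease with a long propeptide, was low everywhere and highest in stromal cluster 7 at 1.15 (0.937 to 1.41) and 1.48 (1.19 to 1.83), with stromal cluster 5 overlapping at 1.14 and 1.13. Its hematopoietic level was 0.164 (0.0752 to 0.312) and 0.115 (0.0464 to 0.238), the lowest level of the 13 clusters in both libraries. *Ctsf* and *Ctss* were accordingly the least alike members, with r = -0.52 over the 26 values. *Ctsf* is at chr19:4855130-4860918 on the plus strand.

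Cathepsin S was the hematopoietic cathepsin. *Ctss* stood at 17.8 (16.7 to 19) in the hematopoietic cluster of B6129PF1/J and 25.6 (24.3 to 26.9) in that of C57BL/6J, and between 0 and 0.0471 in the 12 other clusters of the libraries. Hematopoietic cells held 96.9% and 98.1% of all *Ctss* UMIs. A UMI was found in 85.8% and 93.7% of hematopoietic cells (median depth 5047.5 and 3977 UMIs) but in at most 1.18% and 1.39% of the cells of any other cluster, whose median depths ran from 2161.5 to 5327.5. Whether that low share is background or expression was not tested. Outside the hematopoietic cluster *Ctss* stood at 0.0187 (0.0127 to 0.0265) and 0.0205 (0.0138 to 0.0293), and at 0.0140 and 0.0183 once the 141 and 186 cells with a UMI of *Ptprc*, *Laptm5*, *Tyrobp* or *Fcer1g* were left out.

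Cathepsin C, the dipeptidyl peptidase that activates granule proteases of leukocytes, had a second site in RPE. *Ctsc* stood at 5.46 (4.86 to 6.12) and 4.83 (4.29 to 5.42) in hematopoietic cells and at 2.54 (2.36 to 2.73) and 2.39 (2.17 to 2.63) in RPE, which was second in both libraries. RPE, with its larger number of cells, held 50.9% and 32.7% of all *Ctsc* UMIs and hematopoietic cells 20.0% and 22.9%. Stromal cluster 6, at 0.881 (0.757 to 1.02) and 1.43 (1.27 to 1.61), was above the other 3 stromal clusters at 0.153 to 0.617 by level. Kdr-high ECs stood at 0.0210 and 0.0821. *Ctsc* is at chr7:88278085-88310888 on the plus strand.

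*Ctsk* and *Ctss* are neighbours on chromosome 3 and read in the same direction, *Ctsk* at chr3:95499256-95509362 and *Ctss* at chr3:95526786-95556403 (GRCm38), with 17423 bases and 0 other protein-coding genes between them. They were high in different clusters, since *Ctsk* was at 0.0548 and 0.0660 in hematopoietic cells and *Ctss* was at or under 0.0471 in the stromal clusters. The stretches before both starts are shown for this contrast, and that of *Ctsc* because it shared a match with *Ctss*. GAGGAAGT, a form of the site of the myeloid factor PU.1, was searched on both strands and was found in *Ctss*, beginning at -2, and in *Ctsc*, at -151, the only 2 of the 9 member windows, against 3.20% of all windows. Capitals mark these matches, both on the opposite strand, and TCATGTG in *Ctss* at 18. TCATGTG, on either strand, was in 2 of the 9 member windows (*Ctsa*, *Ctss*) and in 3.77% of all. *Ctsk* held none of the 5 motifs searched (the fifth was the longer CLEAR element, TCACGTGA between a G and a C, in 0 of 9 member windows and 0.326% of all), which says only that these letters are not in this window. The stretches are chr3:95526616-95526815 for *Ctss*, chr7:88277915-88278114 for *Ctsc* and chr3:95499040-95499239 for *Ctsk*, all on the plus strand and with the same limits as above.
Ctss: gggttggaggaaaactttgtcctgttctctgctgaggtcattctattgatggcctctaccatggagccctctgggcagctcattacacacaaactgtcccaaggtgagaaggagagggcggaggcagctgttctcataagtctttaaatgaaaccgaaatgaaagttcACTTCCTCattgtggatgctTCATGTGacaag
Ctsc: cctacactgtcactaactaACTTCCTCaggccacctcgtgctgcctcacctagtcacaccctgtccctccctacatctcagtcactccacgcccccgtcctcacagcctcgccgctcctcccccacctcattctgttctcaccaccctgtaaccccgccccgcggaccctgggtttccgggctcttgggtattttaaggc
Ctsk: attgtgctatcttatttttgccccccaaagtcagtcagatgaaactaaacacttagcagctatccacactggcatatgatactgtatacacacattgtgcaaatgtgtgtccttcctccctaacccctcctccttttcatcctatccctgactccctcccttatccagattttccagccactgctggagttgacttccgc

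The genes most like each member over the 26 values were drawn from 3464 genes with at least 1 UMI per 10,000 in some cluster of both libraries. *Ctss* had the closest likenesses, *Aif1*, *Ms4a6d* and *Clec4a3* (r = 0.997 each), followed by *Ctsk* with *Islr* (0.96), *P3h3* (0.94) and *Rbms3* (0.94). *Ctsd* was nearest to *Psap* (0.88), *Npc2* (0.88) and *Vamp8* (0.88), and *Ctsb* to *Creg1* (0.88), *Npc2* (0.87) and *Lamtor4* (0.84). Among the genes most like *Ctsz* were *Cd44* (0.90) and *Sdc3* (0.84), and *Ctsf* was nearest to *Lrpap1* (0.90), *Phpt1* (0.87) and *Cnpy2* (0.85). *Ctsl* came closest to *Tceal8* (0.86), *Gnptg* (0.84) and *Cnpy2* (0.83), and *Ctsa* to *Ucp2* (0.79), *Atp6v1b2* (0.76) and *Npc2* (0.74). *Ctsc* was nearest to *Csf1r* (0.78), *Prdx5* (0.75) and *Plbd1* (0.74), and *Ctsh* to *Rps27rt* (0.83), whose reads may be shared with a near-identical ribosomal gene, *Akap13* (0.83) and *Vcam1* (0.83).

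Of 46 other genes of the pathway 42 were in the count tables, and 28 of these had the same top cell type in both libraries, beside 59.2% of 15299 genes. Hematopoietic cells and melanocytes led with 8 genes each and RPE with 5. The share of all genes led by each cell type was not computed, and melanocyte levels rest on 16 and 26 cells. These counts are therefore not read as a trait of the pathway genes. Among the inhibitors, *Cst3* stood at 382 and 366 in RPE and at 115 and 99.4 in hematopoietic cells, and *Ctla2a*, which encodes a propeptide-like inhibitor of cathepsin L, was an EC gene at 16.1 and 17.2. Within ECs *Ctla2a* stood at 18.0, 16.5 and 1.62 from Kdr-high to Kdr-low in B6129PF1/J and at 16.8, 19.4 and 1.63 in C57BL/6J, so that like *Ctsl* it was lowest in Kdr-low ECs. The leukocyte inhibitor gene *Cst7* was seen in hematopoietic cells at 0.0548 and 0.247, against 0 in ECs.

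The sorting list was led by *Psap*, the prosaposin gene, at 31.5 and 38.2 in RPE, and by *Lgmn*, encoding the legumain protease that processes several cathepsins, at 4.33 and 6.27 in hematopoietic cells beside 4.28 and 3.66 in melanocytes. The lysosome membrane list was led by *Cd63*, at 57.2 and 58.4 in melanocytes, and by *Lamp1* at 7.66 and 7.90. Of the other hydrolases, *Hexa* stood at 3.42 and 4.09 and *Grn*, the progranulin gene, at 3.86 and 5.06 in hematopoietic cells. Of the other cathepsins, *Ctso* was highest in Schwann cells at 1.35 and 1.249 and *Ctsw*, a gene of cytotoxic lymphocytes, reached 0.164 and 0.0825 in hematopoietic cells.

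The hematopoietic cluster, with 106 cells in the B6129PF1/J library and 127 in the C57BL/6J library, was clustered again without the cathepsin genes into 11 subsets, H1 to H11. H1 (41 cells, led by *Cxcl2*, *Ccl3* and *Cxcl1*) held 7 of 8 macrophage markers at 2 or more times their level in all other cells of the cluster pooled. It was called macrophage-like, although chemokine genes led it. H3 (27 cells, led by *Gpnmb*, *Folr2* and *Ccl24*) held all 8 macrophage markers but also the pigment genes *Tyrp1* and *Dct* among its 10 leading genes, and stays unnamed. H5 (25) was dendritic cell-like, H6 (22) T cell-like and H10 (7) B cell-like. H4 (27, *Pglyrp1*, *Ace*), H7 (19, *Lyz1*, *Ly6c2*) and H2 (33, mast cell genes such as *Mcpt4* together with *Xcr1* of dendritic cells) stay unnamed. H8, H9 and H11, with 32 cells between them, were led by stromal, EC and RPE genes.

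Cathepsins D and B were concentrated in H3, where *Ctsd* was above its level in RPE in both libraries. *Ctsd* stood at 78.8 (74.1 to 83.6) in H3 against 8.29 (6.87 to 9.92) in H1, 16.6 (14.4 to 19.2) in H8 and 1.16 (0.557 to 2.14) in H4, and *Ctsb* at 75.0 (70.4 to 79.7) against 23.3 (20.9 to 26), 17.4 and 14.2. With 8.49% and 14.2% of the hematopoietic cells, H3 held 69.6% and 69.9% of the *Ctsd* UMIs and 45.7% and 54.0% of the *Ctsb* UMIs of the cluster in the B6129PF1/J and C57BL/6J libraries. Its summed cathepsin share was 2.44% of all UMIs, against 0.988% in H1 and 0.0863% in H6. Without H3, an alternative added after the data were seen, the summed share of hematopoietic cells was 0.452% in B6129PF1/J and 0.586% in C57BL/6J. In B6129PF1/J this share was below that of RPE and inside the melanocyte interval of 0.417% to 0.507%. In C57BL/6J it was still the highest. In H3 the 4 melanocyte markers summed to 55.9 per 10,000 in the B6129PF1/J library, on 284 UMIs in 9 cells, and to 1.07 in the C57BL/6J library, on 9 UMIs in 18 cells, whereas the macrophage markers summed to 242 and 232. Over both libraries the melanocyte markers were at most 9.13 in the other subsets, beside 567 and 563 in the melanocyte cluster, where *Ctsd* itself stood at 11.5 and 10.3 and *Ctsb* at 13.9 and 15.5. Doublets were not removed, and how pigment transcripts came to be in H3 was not tested.

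*Ctss* was spread over more subsets. It stood at 46.7 (43.2 to 50.5) in H3, 31.6 (28.7 to 34.6) in H1, 28.2 (25.1 to 31.5) in H7, 23.8 (20.7 to 27.3) in H4 and 20.7 (18.5 to 23.1) in H5, and was found in every cell of these 5 subsets. Every cell of H9, at 26.7 (22.5 to 31.4), H8, at 20.0 (17.5 to 22.7), and H11, at 12.3 (8.56 to 17.1), held it too. H2 was lower at 7.27 (6.26 to 8.40), as was the B cell-like H10 at 5.68 (2.45 to 11.2), and the T cell-like H6 was lowest at 0.863 (0.280 to 2.01), with 4 of 22 cells positive. *Ctsh* was highest in the dendritic cell-like H5, at 10.9 (9.32 to 12.7), overlapping H1 at 8.92 (7.44 to 10.6), and was at 0 of 22 cells in H6, which allows a level of up to 0.637 by its Poisson interval. *Ctsc* stood at 10.9 (9.30 to 12.8) in H1 and 9.39 (7.83 to 11.2) in H3, overlapping. Of the 10 members, 8 were highest in H1 or H3 among the subsets with 10 or more cells, the exceptions being *Ctsh* in H5 and *Ctsk* in H8, beside 20.3% of 13019 genes with a UMI there. *Ctsf* counts among the 8 by 0.518 on 7 UMIs in H3 against 0.510 on 6 UMIs in H8. With at least 20 UMIs it was 7 of 8 members, beside 20.6% of 5217 genes.

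**Figure D4:**
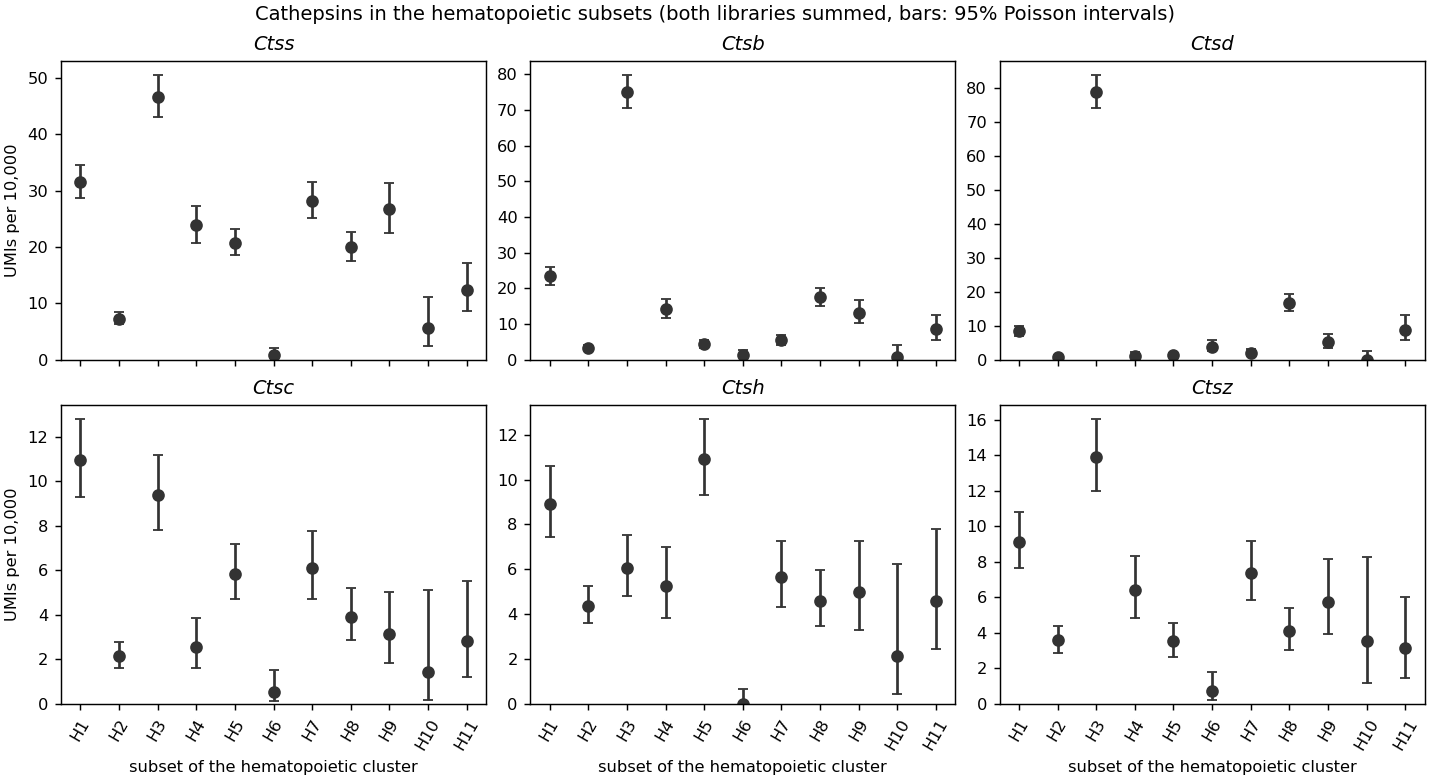
UMIs per 10,000 (y axes, from 0) of *Ctss*, *Ctsb*, *Ctsd*, *Ctsc*, *Ctsh* and *Ctsz* in the 11 subsets H1 to H11 of the hematopoietic cluster (x axis), both libraries summed, with 95% Poisson intervals as bars. *Ctsd* and *Ctsb* peak in H3 at 78.8 and 75.0, while *Ctss* runs from 20.7 in H5 to 46.7 in H3 among H1, H3, H4, H5 and H7 and is at 0.863 in the T cell-like H6.

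Between the strains, 104 member-cluster pairs had at least 20 UMIs over both libraries. Intervals were apart in 4 pairs higher in B6129PF1/J, beside 3.45% of all gene-cluster pairs, and in 11 pairs higher in C57BL/6J, beside 3.91% of all. The members' shares were 3.85% and 10.6%. Intervals come apart more readily at higher counts, and no share over pairs of like depth was computed. Of the 11 pairs, 4 were in hematopoietic cells, where *Ctsb* was 1.67 times, *Ctsd* 1.97 times, *Ctss* 1.44 times and *Ctsz* 1.62 times as high in C57BL/6J, and there 6.79% of 5362 genes were higher in that library. With every cell thinned to 1700 UMIs, 6 pairs in place of 11 were higher in C57BL/6J.

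The make-up of the hematopoietic cluster moved with this difference. H3 held 9 of 106 and 18 of 127 cells, H5 19 and 6, and H6 17 and 5. Without H3 *Ctsd* stood at 2.94 (2.48 to 3.46) and 6.04 (5.39 to 6.74), *Ctsb* at 7.63 (6.88 to 8.44) and 11.4 (10.5 to 12.3), *Ctss* at 16.1 (15.0 to 17.3) and 20.9 (19.7 to 22.2), and *Ctsz* at 4.25 (3.70 to 4.86) and 5.69 (5.06 to 6.38), all 4 still apart. H8, which stromal genes led, held 5 and 12 cells, with *Ctsd* at 6.14 and 21.9. Without H3 and H8, also added after the data were seen, *Ctss* at 16.7 (15.6 to 18.0) and 20.1 (18.8 to 21.5) and *Ctsz* at 4.39 (3.81 to 5.05) and 5.84 (5.15 to 6.60) were apart, whereas *Ctsd* at 2.67 (2.21 to 3.18) and 3.23 (2.72 to 3.80) and *Ctsb* at 7.72 (6.93 to 8.57) and 9.34 (8.46 to 10.3) overlapped. Within the macrophage-like H1 none of the 4 were apart. There *Ctsd* stood at 9.46 (7.38 to 11.9) and 7.02 (5.17 to 9.30) and *Ctss* at 32.1 (28.2 to 36.4) and 31.0 (27.0 to 35.5). Within H3 all 4 were higher in C57BL/6J. There *Ctsd* stood at 65.8 (58.9 to 73.2) and 86.5 (80.4 to 93.1) and *Ctss* at 34.1 (29.2 to 39.6) and 54.3 (49.5 to 59.5).

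The remaining pairs were in other cell types. In RPE *Ctsd* was 0.869 times as high in C57BL/6J. *Ctsh* was higher in C57BL/6J in Kdr-medium ECs (1.46 times) and in stromal clusters 6 (1.39) and 7 (1.37). *Ctsl* was higher in that library in Kdr-medium ECs (1.34 times) but lower in stromal clusters 5 (0.918) and 6 (0.851) and in melanocytes (0.626), so that its direction differed by cluster. *Ctsc* was higher in stromal cluster 6 (1.62 times) and in Schwann cluster 12 (2.57 times), the latter on 14 and 32 UMIs, and *Ctsb* in stromal cluster 7 (1.26 times).

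In the bulk data the expression values are the authors' mean FPKM (fragments scaled to transcript length and library size) of 3 libraries, and the authors' own comparisons beside them were not used. A ratio of these means is given with no error and no test, and a change was counted only at 1.5 times or more where the higher group mean was 1 FPKM or more. In such tissue means fewer cells of a type and less RNA per cell cannot be told apart. The target was lower as labelled, with *Ihh* at 1.53 FPKM in Ihh+/+ and 0.454 after deletion and its target *Gli1* at 9.40 and 3.15. In culture *Gli1* stood at 0.0280 with DMSO and 3.65 with SAG and *Ptch1*, encoding the Hedgehog receptor, at 1.13 and 10.1.

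None of the 10 cathepsins reached 1.5 times in either direction after endothelial *Ihh* deletion, beside 2.53% of 11411 genes lower and 2.17% higher. *Ctss* came nearest, at 136 FPKM in Ihh+/+ and 196 in Ihh-deleted RPE/choroid (1.45 times), and 2.49% of genes had a larger ratio. The general leukocyte markers *Ptprc*, *Laptm5*, *Tyrobp* and *Fcer1g* summed to 126 and 133 FPKM (2 of 4 higher), and 7 of the 8 macrophage markers in the table summed to 264 and 234 (1 of the 6 at or above 1 FPKM higher). The 7 dendritic cell markers summed to 8.71 and 10.4 (2 of the 3 at or above 1 FPKM higher). *Itgax*, the highest of them, stood at 4.08 and 6.32 (1.55 times) and *H2-DMb2* at 1.66 and 1.75, whereas *Zbtb46* was lower at 1.90 and 1.34. Under 1 FPKM, *Cd209a* was higher and *Flt3*, *Xcr1* and *Clec9a* were lower. The part of these cells in the *Ctss* ratio was not tested.

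*Ctsk* was lowest in ratio, at 11.9 and 9.37 FPKM, 1.27 times lower, and the 4 stromal markers summed to 562 and 372, with 2 of 4 lower by 1.5 times or more. *Ctsh* stood at 24.5 and 21.2. The other 7 members lay between 0.958 and 1.14 times, as *Ctsd* at 1191 and 1253, *Ctsb* at 199 and 190, *Ctsz* at 103 and 103, *Ctsl* at 87.8 and 88.9, *Ctsa* at 59.9 and 65.9, *Ctsf* at 28.8 and 30.4 and *Ctsc* at 23.4 and 26.6 FPKM. The median ratio of the members was 1.03, and that of genes with at least 1 FPKM in both groups 0.975. At a lower threshold of 0.32 on the log2 scale, *Ctss* was higher and *Ctsk* lower, 1 of 10 each, beside 5.19% and 8.53% of all genes.

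Of the other pathway genes, only *Ctse*, the gene of a nonlysosomal aspartic cathepsin, passed 1.5 times, at 0.267 and 1.20 FPKM, close to the filter. No gene of the other 4 pathway lists did, in either direction. In single cells *Ctse* was seen in hematopoietic cells of B6129PF1/J at 0.365 UMIs per 10,000 and at 0 in those of C57BL/6J. The RPE markers *Rpe65*, *Rlbp1* and *Rgr* summed to 3941 and 4897 FPKM, the 4 melanocyte markers to 2074 and 1276 and the 4 photoreceptor markers to 71.9 and 24.8, so that the make-up or state of the dissected tissue differed in several lists beside the cathepsins. The part of these in the member ratios was not tested.

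In cultured GLI1+ cells 9 of the 10 members were at or above 1 FPKM, the exception being *Ctss*. *Ctsd* led at 311 FPKM with DMSO, followed by *Ctsl* at 113, *Ctsz* at 80.5, *Ctsb* at 71.0 and *Ctsk* at 39.3. *Ctsc* stood at 1.04 and *Ctss* at 0.188, and *Ptprc*, *Laptm5*, *Tyrobp* and *Fcer1g* summed to 0.200. On this length-scaled measure *Ctsl* made up 16.3% of the summed cathepsin FPKM in culture and 4.71% in Ihh+/+ tissue, *Ctsk* 5.64% and 0.639%, and *Ctss* 0.0269% and 7.28%. The tables were normalized separately, so that only shares within each are set side by side.

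With SAG no cathepsin moved past the threshold. None of the 9 members at or above 1 FPKM reached 1.5 times, beside 2.45% of 10325 genes lower and 1.38% higher. At 0.32 on the log2 scale none did either, beside 5.45% lower and 6.33% higher. The highest ratio was that of *Ctsl*, 113 and 130 FPKM (1.15 times), and the lowest that of *Ctsc*, 1.04 and 0.917. *Ctsd* stood at 311 and 328, *Ctsb* at 71.0 and 74.2, *Ctsz* at 80.5 and 80.4, *Ctsk* at 39.3 and 42.7, *Ctsa* at 33.5 and 37.2, *Ctsh* at 25.1 and 26.5 and *Ctsf* at 23.0 and 25.6. The median ratio of the members was 1.06 and that of all genes with at least 1 FPKM in both 1.04.

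**Figure D5:**
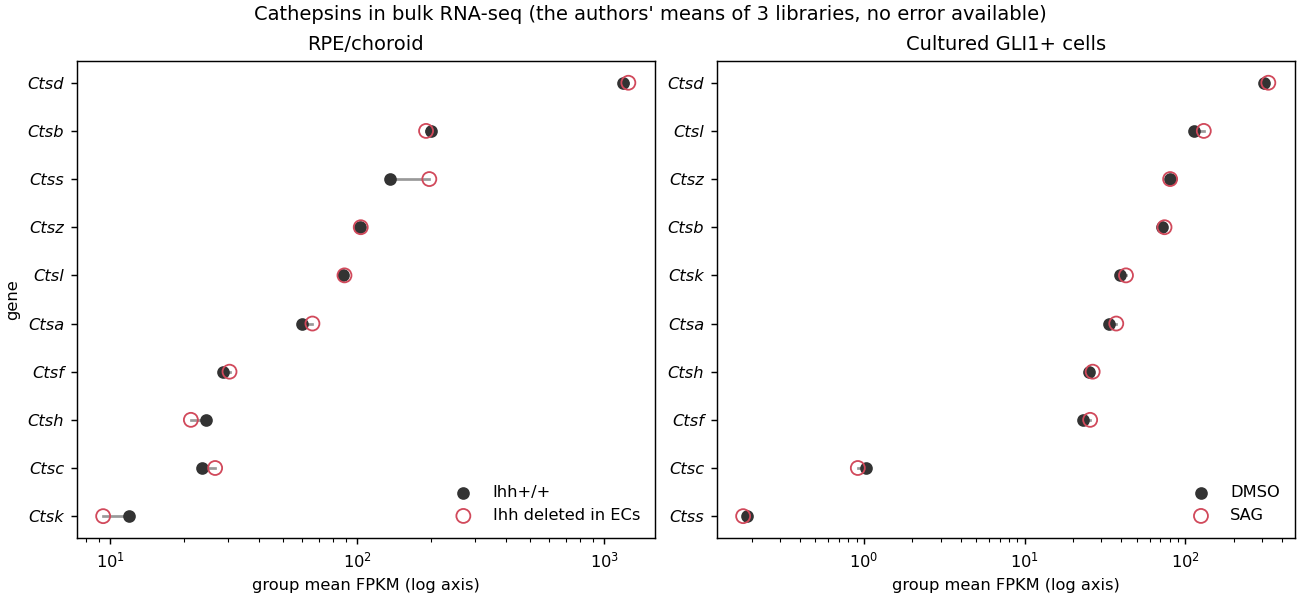
The authors' group mean FPKM (x axis, log scale) of the 10 cathepsins (y axis) in RPE/choroid with Ihh+/+ (filled) or endothelial *Ihh* deletion (open), left, and in GLI1+ cells with DMSO (filled) or SAG (open), right, without error bars since only means of 3 libraries were given. *Ctss* shows the widest gap, 136 and 196 FPKM in tissue, and in culture it is the lowest member at 0.188 and 0.177.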

How the data were processed

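Members and gene lists were chosen with earlier results of these data known. The authors deposited raw UMI counts per gene and cell (Cell Ranger on mm10; Seurat 2.1, which per the study left out cells under 1700 UMIs) and each cell's cluster and library. The authors also deposited FPKM as group means, made with STAR 2.4.0f1, SAMtools 0.1.19 and Cufflinks 2.0.2. Fold changes and adjusted p-values in the bulk tables and averages per cluster were not used, and libraries of ECs from other organs and enriched-gene lists were not analysed here. Counts were summed per cluster and library; doublets were not removed. Intervals were exact Poisson (levels) or Clopper-Pearson (shares), 95%, and cover counting error only. Hematopoietic cells were reclustered with scanpy 1.11.5 (1000 variable genes, 15 components, 10 neighbours, Leiden resolution 1). Subsets were named from at least 3 markers. Named genes were the 10 members, the 3 genes most like each, and from each pathway list the 2 highest, those 2 times higher in RPE, hematopoietic cells or ECs, and those changed 1.5 times in bulk. A gene that these rules name is not reported here. The rules were checked on simulated data. Promoter windows were from RefSeq (GRCm38.p6) and gene positions from GENCODE. Ran in Python 3.11.15 with numpy 2.4.6, scipy 1.17.1 and pandas 2.3.3.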

Additional observations from a re-analysis of the deposited data

How the results depend on the processing

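Thinning every cell to 1700 UMIs gave 6 pairs higher in C57BL/6J in place of 11. It moved the summed share in RPE of B6129PF1/J from 0.528% to 0.509%, and that of hematopoietic cells from 0.592% to 0.622% in B6129PF1/J and from 0.884% to 0.840% in C57BL/6J. A mean over cells gave 0.518% in RPE of B6129PF1/J and 0.837% in hematopoietic cells of C57BL/6J. Without H3, added after the data were seen, hematopoietic shares were 0.452% and 0.586%, and without H3 and H8, added likewise, 0.456% and 0.525%. A bulk threshold of 0.32 on the log2 scale gave 1 member lower and 1 higher after *Ihh* deletion in place of 0 each. The cause of these shifts was not tested, other than by the construction of each alternative. The other 56 alternative values stayed within 1.5 times the reported count or within the counting interval of the share. Pairs higher in C57BL/6J then ran from 8 to 12 (9 without H3 and H8), pairs higher in B6129PF1/J from 3 to 5, members with the same top cluster from 6 to 7, members 2 times above every other cluster from 2 to 3, and members highest in a macrophage-marker subset from 7 to 8. Of 80 alternative levels of members in their top cluster 73 stayed within the counting interval and 7 did not (0.816 to 1.31 times). Melanocyte levels rest on 16 and 26 cells, and hematopoietic subsets rest on 5 to 41 cells. No paired analysis was possible because the bulk expression values are group means and each strain has 1 library, and for the same reason no replicate could be left out.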
